A study of Mus musculus with 6 samples.

Results

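Axl, Mertk and Tyro3 are the 3 receptor tyrosine kinases of the TAM family, and Gas6 and Pros1 encode their ligands. These 5 genes were taken by symbol from the 38293 genes of a deposited RNA-sequencing table of Eμ-Myc tumors. Axl was chosen because the study had singled it out, by its difference between the genotypes in these same libraries and as a predicted target of miR-146a. The other 4 were added as its relatives. The tumors came from C57BL6 mice that all carried the Eμ-Myc transgene, in which the immunoglobulin heavy chain enhancer drives c-Myc in B-lineage cells. RNA was compared between 2 tumors from mice lacking miR-146a in the germline (miR-146a-/-) and 4 tumors from miR-146a+/+ mice. Both miR-146a-/- tumors came from the thymus, at 11 weeks of age (replicate 1) and 10 weeks (replicate 2), from mice labelled female. The miR-146a+/+ tumors came from mice labelled male. Replicates 1 and 2 were neck node tumors taken at 18 and 16 weeks, and replicates 3 and 4 were thymic tumors taken at 10 weeks. Each tumor was dissociated to a single cell suspension and RNA was extracted from the whole suspension, so cells other than tumor cells were included. With bulk RNA, a smaller number of cells of a type and less RNA per cell cannot be told apart.

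The TAM receptors bind Gas6 and Protein S, which in turn bind phosphatidylserine exposed on the surface of dying cells. In this way macrophages and other phagocytes recognize and engulf apoptotic cells, and the receptors also dampen innate inflammatory signaling in the cell that bears them. Eμ-Myc tumors are known for a high rate of apoptosis, and engulfing macrophages lie among the lymphoma cells. miR-146a is a microRNA induced by NF-κB that represses mRNAs carrying matches to its seed, the bases near its 5′ end, in their 3′ untranslated region (3′UTR).

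Values were RPKM, reads per kilobase of transcript scaled for library depth, with 1 value per gene and tumor. They summed to between 675520 and 788920 per tumor, except in miR-146a-/- replicate 1, where Xist alone was listed at 1240100 RPKM and the other genes summed to 692850. Counts were not used here, and a rough reading of the steps between low values put the libraries at about 20000000 to 57000000 reads. The B-cell receptor genes Cd79a and Cd79b were at 388 RPKM or more in every tumor. The thymic epithelial transcription factors Foxn1 and Aire were at or near 0 in all tumors, thymic ones included. Some other genes of the same marker list were not. Krt18 was at 1.01 and 8.54 RPKM in miR-146a-/- replicates 1 and 2, against 2.06 to 4.00 RPKM in the miR-146a+/+ tumors. Krt8 was at 0.450 and 1.64 RPKM, against 0 to 0.555 RPKM. The label of sex was in doubt for miR-146a-/- replicate 2, where the Y-linked gene Ddx3y was at 24.6 RPKM, against 0.130 in miR-146a-/- replicate 1 and 17.9 to 23.0 in the miR-146a+/+ tumors. The main values are therefore also given without this tumor. Mir146 itself was listed at 0 in all 6 tumors and could not check the genotype.

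The sequences that link miR-146a to these genes are its seed and the matches to that seed in their 3′UTRs. The mature miR-146a-5p lies at chr11:43374435-43374456 on the minus strand of GRCm38, and miR-146b-5p, which has the same seed, at chr19:46342790-46342811 on the plus strand. Both are RefSeq sequences given 5′ to 3′, and the capitals mark the seed, bases 2 to 8.
mmu-miR-146a-5p: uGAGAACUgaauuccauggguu
mmu-miR-146b-5p: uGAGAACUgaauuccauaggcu
Of the 5 genes, Axl had in its longest annotated 3′UTR (1389 bases, GENCODE M21) 1 match to the whole seed, followed by an A at positions 235 to 242 of the 3′UTR. This window lies at chr7:25758412-25758435 on the minus strand of GRCm38, and the capitals mark the match with its A.
Axl 3′UTR: gagttcaaAGTTCTCAaagatgat
The 3′UTR of Mertk (1227 bases) held 1 shorter match, to bases 2 to 7, at chr2:128802726-128802747 on the plus strand, marked by the capitals.
Mertk 3′UTR: ttgatgctGTTCTCtgtacaca
No match to bases 2 to 7 was found in the 3′UTRs of Tyro3 (1070 bases), Gas6 (372 bases) or Pros1 (1153 bases). Among 21010 genes with an annotated 3′UTR, 11.2% had a match to bases 2 to 8, 4.06% had one followed by an A, and 29.7% had a match to bases 2 to 7. The study had named Axl as a predicted target by such sites, so its match is not independent of its choice and nothing is read from it. A match of letters is a description and not a functional site.

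Across the family, Axl, Mertk and Gas6 were each higher in both miR-146a-/- tumors than in all 4 miR-146a+/+ tumors, while the groups overlapped in Tyro3 and Pros1. The mean RPKM in the miR-146a-/- tumors over that in the miR-146a+/+ tumors was 3.44 for Axl, 6.97 for Mertk and 4.93 for Gas6. It was 1.71 for Pros1 and 0.757 for Tyro3. Of all genes detected in at least 1 tumor, 8.9% were likewise above every miR-146a+/+ tumor in both miR-146a-/- tumors. The count of 3 of 5 includes Axl, whose choice used this contrast, so it is a description and nothing is read from it. Apart from Axl, 2 of the other 4 genes (Mertk and Gas6) could be tested with limma, and 0 of these 2 reached an adjusted p of 0.05, which 0.0627% of all tested genes did.

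**Figure D1:**
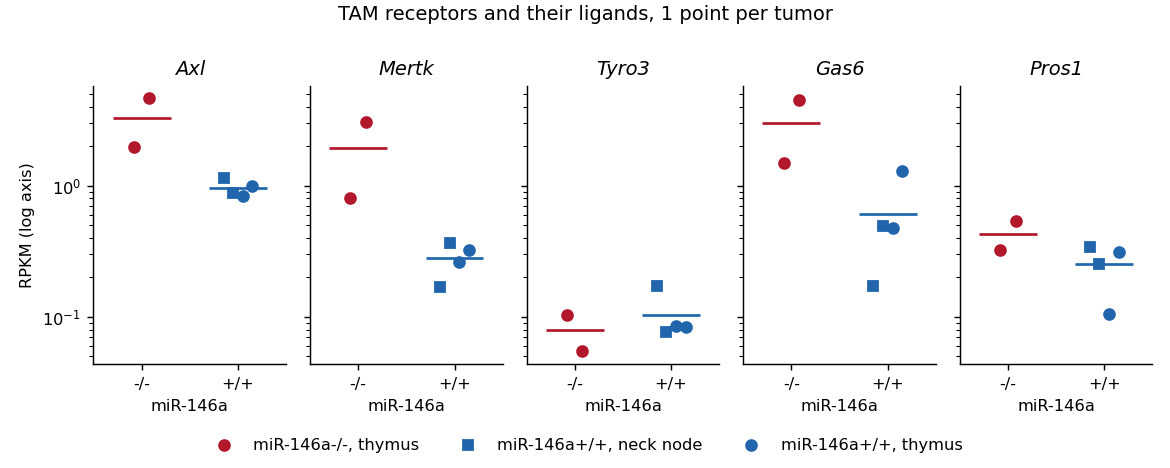
RPKM of each TAM receptor and ligand on a log axis, 1 point per tumor, with miR-146a-/- tumors in red, miR-146a+/+ tumors in blue (squares for neck node, circles for thymus), and a line at each group mean. Both miR-146a-/- tumors lie above all miR-146a+/+ tumors for Axl, Mertk and Gas6, with the lower red point of Gas6 (1.50 RPKM) close to the highest blue one (1.30 RPKM).

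Axl, a receptor that binds Gas6 but not Protein S and is induced in inflamed phagocytes, lies on chromosome 7 of GRCm38 (25757273 to 25788705, minus strand). It was at 1.97 and 4.64 RPKM in miR-146a-/- replicates 1 and 2, against 1.14, 0.873, 0.831 and 0.990 RPKM in miR-146a+/+ replicates 1 to 4. The 4 miR-146a+/+ tumors were close together (0.960 ± 0.141, SD, n = 4), and the miR-146a-/- tumors were apart from them and from each other (3.30 ± 1.89, SD, n = 2). The log2 fold change, fitted on log2(RPKM + 1), was 1.06 (standard error 0.29). On this scale, changes at low RPKM come out smaller than they are as ratios. No test or interval of this difference is given for Axl, because it was selected on this difference. In the larger set of tumors that the study assayed by RT-qPCR, Axl did not differ significantly between the genotypes. Without miR-146a-/- replicate 2 the fold change was 0.60, and without replicate 1 it was 1.53.

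Mertk, the receptor through which resting macrophages engulf apoptotic cells and which binds both ligands, lies on chromosome 2 (128698956 to 128802894, plus strand). It was at 0.812 and 3.09 RPKM in miR-146a-/- replicates 1 and 2, against 0.170, 0.367, 0.261 and 0.321 RPKM in miR-146a+/+ replicates 1 to 4. The groups did not overlap, and the lower miR-146a-/- tumor was 2.21 times the highest miR-146a+/+ tumor. Mertk passed the filter on low values (0.5 RPKM or more in 2 tumors or more) through the miR-146a-/- tumors only. Its interval and p-values are therefore given as a description. The log2 fold change was 1.09 (standard error 0.32, 95% interval 0.36 to 1.83) and did not pass the threshold (adjusted p = 0.893 from limma). By an exact two-sided permutation test over the 15 splits of the tumors, p was 0.133, which is the smallest that this design allows. Without miR-146a-/- replicate 2 the value was 0.50 and without replicate 1 it was 1.68, and in neither case did Mertk pass the filter, so no test was made.

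Tyro3, the third receptor, is best known from the nervous system. It lies on chromosome 2 (119797733 to 119818104, plus strand). It was at 0.103 and 0.0545 RPKM in miR-146a-/- replicates 1 and 2, against 0.171, 0.0764, 0.0844 and 0.0842 RPKM in miR-146a+/+ replicates 1 to 4. The groups overlapped (log2 difference -0.033, exact two-sided permutation p = 0.533), and the gene did not reach the filter in any tumor. These values correspond to roughly 30 and 11 reads in the miR-146a-/- tumors and 12 to 27 reads in the miR-146a+/+ tumors, so a modest difference was not detectable at this depth.

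Gas6, the vitamin K-dependent ligand of all 3 receptors, lies on chromosome 8 (13465374 to 13494490, minus strand). It was at 1.50 and 4.53 RPKM in miR-146a-/- replicates 1 and 2, against 0.171, 0.496, 0.478 and 1.30 RPKM in miR-146a+/+ replicates 1 to 4. The groups did not overlap, but the lower miR-146a-/- tumor was only 1.15 times the highest miR-146a+/+ tumor, which was thymic as well. The log2 fold change was 1.25 (standard error 0.38, 95% interval 0.38 to 2.12) and did not pass the threshold (adjusted p = 0.893 from limma). The exact two-sided permutation test gave p = 0.133. Gas6 also needed the miR-146a-/- tumors to pass the filter, so its interval and p-values are given as a description. Without miR-146a-/- replicate 2 the log2 fold change was 0.68 (adjusted p = 1.00 from limma), and without replicate 1 it was 1.82 (adjusted p = 0.360 from limma).

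Pros1, which encodes Protein S, an anticoagulant cofactor and a ligand of Mertk and Tyro3, lies on chromosome 16 (62854307 to 62929346, plus strand). It was at 0.326 and 0.537 RPKM in miR-146a-/- replicates 1 and 2, against 0.342, 0.253, 0.106 and 0.310 RPKM in miR-146a+/+ replicates 1 to 4. The lower miR-146a-/- tumor lay within the miR-146a+/+ range (log2 difference 0.19, exact two-sided permutation p = 0.267), and the difference was 0.086 without miR-146a-/- replicate 2. Like Tyro3, Pros1 did not pass the filter and was not tested with limma.

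The adjusted values are to be read against the table as a whole. Of 12751 genes tested between the genotypes, 8 (0.0627%) reached an adjusted p of 0.05 by limma. Mertk and Gas6 each had an unadjusted p under 0.05, as did 3.62% of all tested genes. Both entered the test through the miR-146a-/- tumors, since 0 (Mertk) and 1 (Gas6) of the miR-146a+/+ tumors reached 0.5 RPKM, so these p-values are given as a description. The median log2 fold change over the whole table was 0.13, and it was -0.014 after median-ratio scaling. With that scaling the fold changes were 0.94 for Axl, 0.99 for Mertk and 1.14 for Gas6. The labels do not say that each tumor came from a separate mouse, and p-values measure only the spread between these 6 tumors. Over 16 other settings of the fit, the adjusted p from limma ran from 0.360 to 1.00 for Gas6, and over the 13 that tested it from 0.545 to 0.996 for Mertk.

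Most of the size of each difference came with miR-146a-/- replicate 2. Its RPKM was 2.36 times that of replicate 1 for Axl, 3.80 times for Mertk and 3.03 times for Gas6. Replicate 1 alone was still above every miR-146a+/+ tumor in these 3 genes, and replicate 2 alone was above them in 4, Pros1 included. Over all detected genes, 16.3% were above every miR-146a+/+ tumor in replicate 1 and 36.8% in replicate 2, so a high value in replicate 2 was common.

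**Figure D2:**
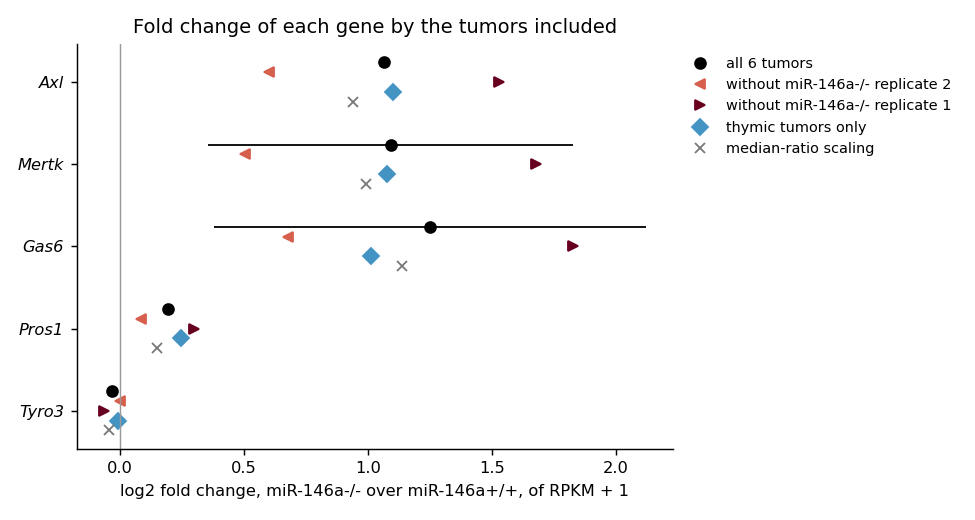
Log2 fold change of RPKM + 1, miR-146a-/- over miR-146a+/+, for each gene with all 6 tumors (black, bar for the 95% interval of Mertk and Gas6) and under 4 other settings. The intervals are a description, since both genes passed the filter through the miR-146a-/- tumors. Axl, Mertk and Gas6 stay above 0 in each setting drawn, at 0.50 to 0.68 without miR-146a-/- replicate 2 and 1.53 to 1.82 without replicate 1, while Tyro3 stays near 0.

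Tumor site differed only within the miR-146a+/+ group, where it went with age. Axl averaged 1.01 RPKM in the neck node tumors and 0.910 RPKM in the thymic tumors. The log2 difference, neck node over thymus, was 0.071 (standard error 0.27, 95% interval -0.58 to 0.72, adjusted p = 0.957 from limma), and the interval spans both directions. Between the sites 19 of 12255 genes (0.155%) passed, Axl not among them. The other 4 genes fell short of the filter among these 4 tumors and are given as values only. Gas6 was at 0.171 and 0.496 RPKM in the neck node tumors, against 0.478 and 1.30 RPKM in the thymic tumors. Mertk averaged 0.268 RPKM in the neck node tumors and 0.291 RPKM in the thymic tumors. Pros1 averaged 0.297 RPKM in the neck node tumors and 0.208 RPKM in the thymic tumors. With thymic tumors only, 2 of each genotype and of like age, the genotype fold change was 1.10 for Axl, 1.08 for Mertk and 1.01 for Gas6 (adjusted p = 0.662 from limma for both Mertk and Gas6). Labelled sex was not shared between the genotypes, and the 2 cannot be told apart by label.

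RPKM is scaled for gene length, so levels were ordered within a tumor. The gene lengths used are not given, and the order and the shares below rest on them. Axl was the most abundant receptor in all 6 tumors, at 68.3% and 59.6% of the summed receptor RPKM in miR-146a-/- replicates 1 and 2 and 66.3% to 77.0% in the miR-146a+/+ tumors. The Mertk share was 28.2% and 39.7% in the miR-146a-/- tumors, against 11.4%, 27.9%, 22.2% and 23.0% in miR-146a+/+ replicates 1 to 4. Replicate 1 of the miR-146a-/- tumors was thus level with miR-146a+/+ replicate 2 in this share. Tyro3 made up 3.58% and 0.701% of the receptor sum in the miR-146a-/- tumors and 5.80% to 11.5% in the miR-146a+/+ tumors. These shares sum to the whole, so a lower share of Tyro3 goes with the higher levels of the other receptors.

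Gas6 was 4.59 and 8.43 times Pros1 in miR-146a-/- replicates 1 and 2, against 0.499, 1.96, 4.52 and 4.20 times in miR-146a+/+ replicates 1 to 4. The ligand ratio in miR-146a-/- replicate 1 was thus close to that in the miR-146a+/+ thymic tumors, and the lower ratios were those of the neck node tumors. The mean log2 ratio was 2.64 ± 0.62 (SD, n = 2) in miR-146a-/- tumors and 1.05 ± 1.48 (SD, n = 4) in miR-146a+/+ tumors. The difference of 1.58 gave an exact two-sided permutation p of 0.133, the smallest possible. It was 1.14 without miR-146a-/- replicate 2, 0.90 without miR-146a+/+ replicate 1, whose ratio was the lowest, and 0.44 with a pseudocount of 5. Among thymic tumors only it was 0.51 (exact permutation p = 0.333, again the smallest possible).

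**Figure D3:**
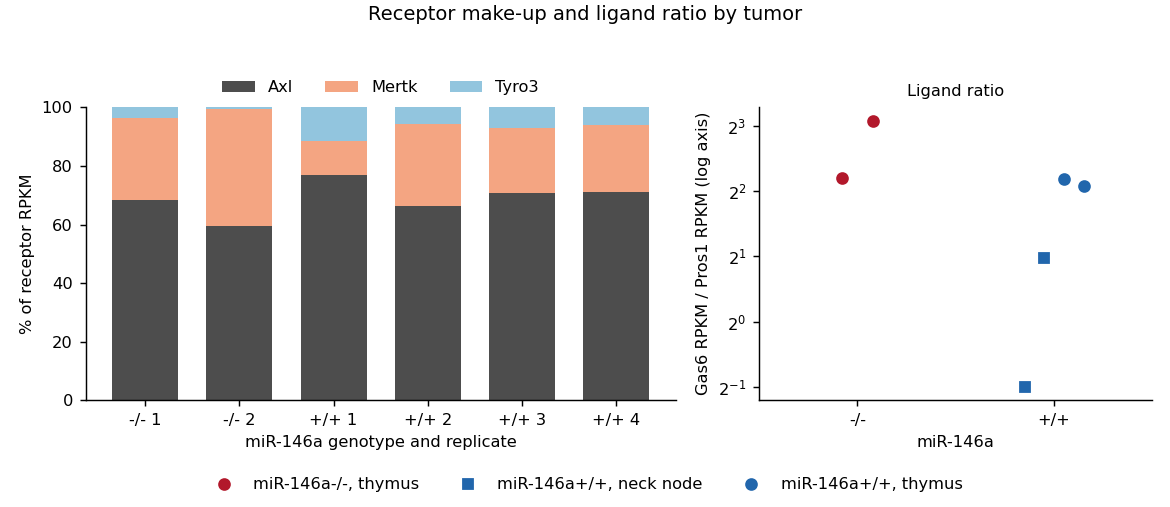
Left, the share of the summed receptor RPKM held by Axl, Mertk and Tyro3 in each tumor, and right, Gas6 RPKM over Pros1 RPKM on a log axis, with miR-146a-/- tumors first in both. Axl holds the largest share in every tumor (59.6% to 77.0%), and the ligand ratio of miR-146a-/- replicate 1 (4.59) sits beside those of the 2 miR-146a+/+ thymic tumors (4.52 and 4.20).

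The receptors and Gas6 are expressed by macrophages, and most macrophage genes also had higher values in the miR-146a-/- tumors. Of 21 macrophage markers, 19 were tested and 0 reached the limma threshold, while 9 had an unadjusted p under 0.05 (3.62% of all tested genes did), each with higher values in the miR-146a-/- tumors. Of these 9, Siglec1 reached the filter through the miR-146a-/- tumors only. C1qa, also among the 9, had been picked by the study on this contrast in these libraries. This count and those of markers above every miR-146a+/+ tumor include C1qa, so they are descriptions. In the larger set of tumors that the study assayed by RT-qPCR, C1qa differed significantly between the genotypes. The median log2 fold change of the list was 0.61 (0.13 for all genes), or 0.54 without miR-146a-/- replicate 2 (0.074 for all genes). Among the 19 tested, 18 were positive. In both miR-146a-/- tumors, 10 of the 21 were above every miR-146a+/+ tumor, against 8.9% of all detected genes. That count was 11 without miR-146a-/- replicate 2 and 17 without replicate 1, against 16.3% and 36.8% of all detected genes. Apoe, a lipid carrier, was at 54.6 and 107 RPKM in miR-146a-/- replicates 1 and 2, against 15.3, 19.2, 21.3 and 24.8 RPKM in miR-146a+/+ replicates 1 to 4, a log2 fold change of 1.90 (limma, adjusted p = 0.212) that was 1.41 without replicate 2 of the miR-146a-/- tumors. Lyz2, which encodes lysozyme and is the most abundant of the list, was at 139 and 149 RPKM in the miR-146a-/- tumors and 93.3 to 271 RPKM in the miR-146a+/+ tumors, a log2 fold change of -0.075 (limma, adjusted p = 0.978). Ctss, a lysosomal protease, was at 125 and 170 RPKM, against 94.5 to 116 RPKM in the miR-146a+/+ tumors. Lyz2 was thus the single tested marker below 0, and its standard error (0.40) was larger than its difference.

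The summed RPKM of the 21 markers was 425 and 574 in miR-146a-/- replicates 1 and 2, against 432, 286, 279 and 392 in miR-146a+/+ replicates 1 to 4, and the groups overlapped. Per 1000 RPKM of this sum, Axl stood at 4.63 and 8.08 in the miR-146a-/- tumors and at 2.52 to 3.05 in the miR-146a+/+ tumors. Mertk stood at 1.91 and 5.38 in the miR-146a-/- tumors and 0.394 to 1.28 in the miR-146a+/+ tumors. Gas6 stood at 3.52 and 7.90 in the miR-146a-/- tumors and 0.396 to 3.31 in the miR-146a+/+ tumors. After this division both miR-146a-/- tumors were above the others in all 3 genes, with Gas6 nearly touching. This depended on the denominator. The overlap of the sums rested on Lyz2, which was 271 of the 432 RPKM in miR-146a+/+ replicate 1. The lack of overlap of Axl and Gas6 after division also rested on counting Lyz2, and that of Mertk did not. Per RPKM of Csf1r, the receptor for the macrophage growth factor CSF1, Axl was at 0.499 and 0.882 in miR-146a-/- replicates 1 and 2, against 0.212, 0.361, 0.506 and 0.269 in miR-146a+/+ replicates 1 to 4, and the groups overlapped. Mertk per RPKM of Csf1r was at 0.206 and 0.587 in the miR-146a-/- tumors and 0.0314 to 0.159 in the miR-146a+/+ tumors, with no overlap. The sum is led by Lyz2, Ctss and Apoe, whose own log2 fold changes were -0.075, 0.43 and 1.90. Whether these 3 come from macrophages alone was not tested, and neither was the part of macrophage content in the TAM values.

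**Figure D4:**
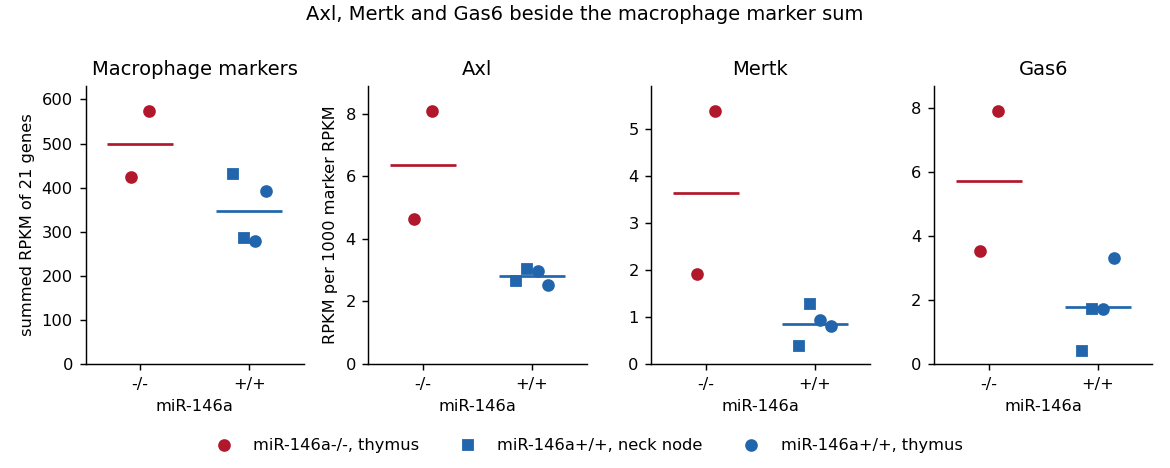
Summed RPKM of the 21 macrophage markers (left panel) and RPKM of Axl, Mertk and Gas6 per 1000 RPKM of that sum, 1 point per tumor with lines at the group means, miR-146a-/- in red and miR-146a+/+ in blue. The marker sum overlaps between the genotypes (425 and 574 against 279 to 432), and the 3 genes divided by it do not, whereas Axl divided by Csf1r alone does (0.499 and 0.882 against 0.212 to 0.506). The overlap of the sum, and the lack of it for Axl and Gas6, rest on Lyz2 being counted.

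Other cell types also differed between the tumors. The summed RPKM of 8 fibroblast genes was 9.04 and 21.1 in the miR-146a-/- tumors, against 4.05, 4.93, 3.33 and 13.2 in miR-146a+/+ replicates 1 to 4. Dcn, a matrix proteoglycan of fibroblasts, was at 2.64 and 11.2 RPKM in the miR-146a-/- tumors, against 0.741, 0.555, 0.758 and 4.54 RPKM in miR-146a+/+ replicates 1 to 4. Replicate 4, the miR-146a+/+ tumor with the most Gas6, thus also had the most of these genes. Its platelet gene Pf4 was at 7.93 RPKM, against 3.40 and 5.10 RPKM in the miR-146a-/- tumors and 0.308 to 0.797 RPKM in the other miR-146a+/+ tumors. The sum of 8 platelet and megakaryocyte genes was 3.67 and 6.28 in the miR-146a-/- tumors and 0.569 to 9.09 in the miR-146a+/+ tumors. The sum of 10 endothelial genes was 17.7 and 30.8 in the miR-146a-/- tumors and 11.6 to 26.4 in the miR-146a+/+ tumors. The sum of 10 neutrophil genes was 109 and 278 in the miR-146a-/- tumors, against 1643 and 1692 (neck node) and 238 and 207 (thymus) in miR-146a+/+ tumors. The salivary gland genes summed to 0.215 and 1.13 RPKM in the miR-146a-/- tumors, against 72.1 and 68.6 (neck node) and 0.310 and 0.539 (thymus) in miR-146a+/+ tumors. The T and NK cell sum was 20.6 and 25.2 in the miR-146a-/- tumors and 28.0 to 80.7 in the miR-146a+/+ tumors. The B-cell sum was 3455 and 2350 in the miR-146a-/- tumors and 1803 to 3063 in the miR-146a+/+ tumors. The dendritic cell sum was 50.9 and 44.3 in the miR-146a-/- tumors and 30.0 to 57.0 in the miR-146a+/+ tumors, and the thymic epithelial sum was 2.07 and 11.0 in the miR-146a-/- tumors and 2.98 to 5.10 in the miR-146a+/+ tumors. No gene of any marker list was at 0 in all tumors. The part of these cells in the TAM values was not tested.

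Genes that work with the TAM receptors were compared in 8 lists of 64 genes. Of these, 49 were tested and 0 reached the limma threshold in either direction, while 5 had an unadjusted p under 0.05 (3.62% of all tested genes did), each with higher values in the miR-146a-/- tumors. Of these 5, Timd4 and Stab1 reached the filter through the miR-146a-/- tumors, having reached 0.5 RPKM in fewer than 2 miR-146a+/+ tumors, so their direction was in part set by the filter. The median log2 fold change of the tested genes was 0.18, against 0.13 for all genes, and 40 of the 49 were positive. Since the median of all genes was itself above 0, a majority of positive genes is not particular to these lists. Of the 64, 8 were above every miR-146a+/+ tumor in both miR-146a-/- tumors, against 8.9% of all detected genes. With replicate 2 left out 12 were, against 16.3% of all detected genes, and with replicate 1 left out 26 were, against 36.8%. Without replicate 2 the median of the 49 was 0.16, against 0.074 for all genes, and the medians of the 8 lists ran from -0.21 to 0.24.

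Other phosphatidylserine receptors and bridging proteins (12 of 17 tested) had log2 fold changes with a median of 0.23. Mfge8, a bridging protein between phosphatidylserine and integrins, was the most abundant of them at 15.9 and 17.7 RPKM in miR-146a-/- tumors, against 9.10 to 15.8 RPKM in miR-146a+/+ tumors. Cd36, a scavenger receptor, was at 6.92 and 1.27 RPKM in the miR-146a-/- tumors and 0.638 to 6.98 RPKM in the miR-146a+/+ tumors. Lrp1, a large endocytic receptor, was at 0.890 and 2.95 RPKM in the miR-146a-/- tumors and 0.250 to 1.26 RPKM in the miR-146a+/+ tumors. Stab1, a scavenger receptor that binds phosphatidylserine, was at 0.660 and 1.71 RPKM in the miR-146a-/- tumors and 0.164 to 0.689 RPKM in the miR-146a+/+ tumors. Only Mfge8 of these 4 had groups that did not overlap, and by a narrow margin. Elsewhere in the list, Timd4 and the untested Stab2 did not overlap either. Timd4 was at 0.568 and 0.932 RPKM in the miR-146a-/- tumors and 0.135 to 0.271 RPKM in the miR-146a+/+ tumors. Stab2 was at 0.0712 and 0.195 RPKM, against 0.0396 to 0.0595 RPKM.

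The engulfment machinery (11 of 13 tested) had a median of 0.14, near that of all genes. Its most abundant members, the GTPases Rac2 and Rac1, were at 132 and 116 RPKM (Rac2) and 92.2 and 85.8 RPKM (Rac1) in the miR-146a-/- tumors. In the miR-146a+/+ tumors they were at 87.1 to 141 RPKM (Rac2) and 63.6 to 93.1 RPKM (Rac1), so both overlapped. Abca1, a cholesterol exporter of cells that have taken up apoptotic bodies, was at 2.21 and 6.13 RPKM in miR-146a-/- replicates 1 and 2, against 1.05, 0.636, 0.855 and 1.03 RPKM in miR-146a+/+ replicates 1 to 4. Its groups did not overlap, and its log2 fold change of 1.34 was the largest of the 64 genes in size among those tested (adjusted p = 0.893 from limma), and it was 0.77 without miR-146a-/- replicate 2. Ptk2, the focal adhesion kinase, was at 19.3 and 15.6 RPKM in the miR-146a-/- tumors and 9.53 to 16.1 RPKM in the miR-146a+/+ tumors.

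Genes that expose phosphatidylserine or flip it inward (7 of 9 tested, median 0.16) overlapped between the groups in the 7 tested. Of the other 2, Xkr9 was above every miR-146a+/+ tumor, at 0.0459 and 0.0538 RPKM in the miR-146a-/- tumors, against 0 to 0.0303 RPKM in the miR-146a+/+ tumors. Tmem30a, a flippase subunit, was at 15.4 and 18.3 RPKM in the miR-146a-/- tumors and 13.5 to 17.9 RPKM in the miR-146a+/+ tumors. Ano6, a scramblase, was at 14.5 and 13.9 RPKM in the miR-146a-/- tumors and 8.72 to 14.9 RPKM in the miR-146a+/+ tumors. Plscr3 had a log2 fold change of 0.33. The enzymes of vitamin K-dependent carboxylation, which Gas6 and Protein S need in order to bind phosphatidylserine, were measured through Ggcx (2.88 and 3.77 RPKM in the miR-146a-/- tumors and 1.48 to 3.23 RPKM in the miR-146a+/+ tumors) and Vkorc1l1 (19.7 and 17.4 RPKM in the miR-146a-/- tumors and 13.4 to 21.3 RPKM in the miR-146a+/+ tumors). Vkorc1 was listed at 0 in all tumors.

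Adam10 and Adam17, the proteases that cut Axl and Mertk from the cell surface, had overlapping levels in the genotypes. Adam10 was at 28.7 and 34.5 RPKM in the miR-146a-/- tumors and 25.7 to 39.7 RPKM in the miR-146a+/+ tumors. Adam17 was at 12.8 and 18.8 RPKM in the miR-146a-/- tumors and 9.44 to 14.7 RPKM in the miR-146a+/+ tumors. The metalloprotease inhibitor Timp2 was at 2.49 and 5.23 RPKM in the miR-146a-/- tumors and 1.36 to 2.40 RPKM in the miR-146a+/+ tumors, a log2 fold change of 0.83 (limma, adjusted p = 0.893) that was 0.41 without miR-146a-/- replicate 2. Timp1, of the same family, was at 0.680 and 2.72 RPKM in the miR-146a-/- tumors and 0.121 to 1.12 RPKM in the miR-146a+/+ tumors.

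Among genes downstream of TAM signaling (6 of 7 tested, median 0.20), Socs3, an inhibitor of cytokine receptor signaling, was at 3.14 and 2.21 RPKM in miR-146a-/- replicates 1 and 2, against 1.71, 1.26, 0.457 and 0.775 RPKM in miR-146a+/+ replicates 1 to 4. Its log2 fold change was 0.87 (adjusted p = 0.893 from limma) and 1.05 without miR-146a-/- replicate 2, and here miR-146a-/- replicate 1 was the higher tumor, unlike in Axl, Mertk and Gas6. Ifnar1 and Ifnar2, the chains of the type I interferon receptor, had log2 fold changes of 0.22 and 0.31. The nuclear receptor genes whose products induce Mertk in macrophages had a median of 0.15. Of these, Nr1h2 was at 23.1 and 18.9 RPKM in the miR-146a-/- tumors and 11.6 to 21.5 RPKM in the miR-146a+/+ tumors. Rxrb and Ppard had log2 fold changes of 0.072 and 0.20. The 5 tested genes of this list overlapped between the groups. Pparg, which did not pass the filter, did not overlap. It was at 0.393 and 1.31 RPKM in the miR-146a-/- tumors and 0.125 to 0.362 RPKM in the miR-146a+/+ tumors. Among other Mertk ligands, Lgals3, which encodes galectin-3, was at 14.0 and 14.1 RPKM in the miR-146a-/- tumors and 12.1 to 23.1 RPKM in the miR-146a+/+ tumors, and Tub was at 0.052 RPKM or less in every tumor.

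**Figure D5:**
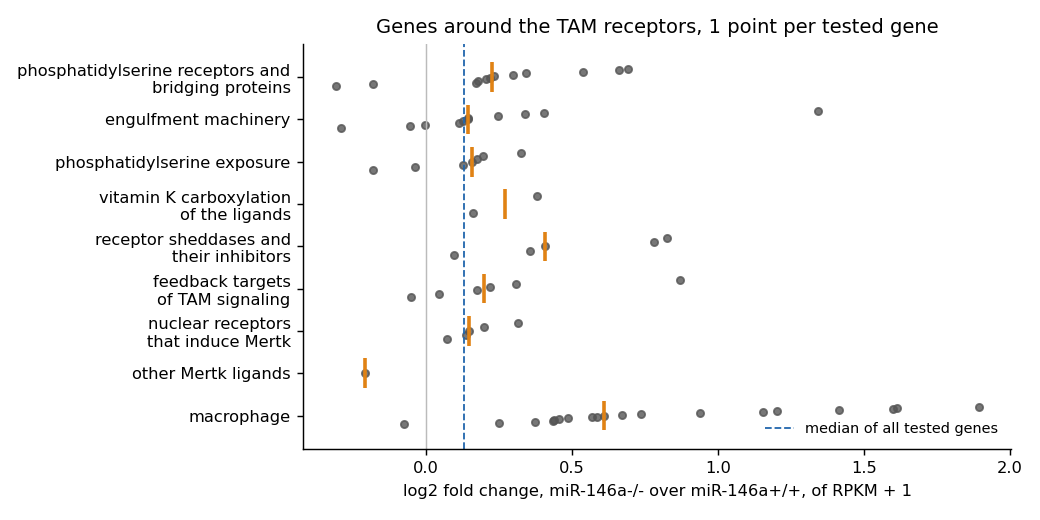
Log2 fold change of RPKM + 1, miR-146a-/- over miR-146a+/+, with 1 point per tested gene in each list, an orange bar at the median of the list and a dashed line at the median of all tested genes (0.13). The medians of the TAM-related lists run from -0.21 to 0.41, and that of the macrophage markers is 0.61.

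The genes whose profile over the 6 tumors lay nearest to each of the 3 higher genes were looked up among all tested genes, by the mean absolute difference of log2(RPKM + 1) after centering each gene on its own mean. Nearest to Axl were Sypl (0.11), a synaptophysin-like membrane protein, Psrc1 (0.12), a spindle protein, and Abca1 (0.12), and Mertk was the fourth of the list (0.13). Sypl was at 18.9 and 42.1 RPKM in the miR-146a-/- tumors and 11.5 to 15.9 RPKM in the miR-146a+/+ tumors. Nearest to Mertk were Zfp318 (0.11), Vcam1 (0.11), an adhesion molecule that some macrophages also bear, and 2310014L17Rik (0.11), with Axl the fifth. Nearest to Gas6 were Serping1 (0.072), the C1 inhibitor, C1ra (0.12), a complement protease, and Vcam1 (0.13). Serping1 was at 1.49 and 4.20 RPKM in miR-146a-/- replicates 1 and 2, against 0.285, 0.421, 0.341 and 1.16 RPKM in miR-146a+/+ replicates 1 to 4, and like Gas6 it was highest among the miR-146a+/+ tumors in replicate 4. Mertk stood at place 27 and Axl at place 38 from Gas6. These are descriptions over 6 tumors that share 1 high library, miR-146a-/- replicate 2.

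The stretches just upstream of the start of Axl, Mertk and Gas6 are shown because these 3 genes were higher together. Each is the 250 bases before the RefSeq start on GRCm38, 5′ to 3′ on the strand of the gene, and capitals mark every GC box (GGGCGG on either strand), the letters that Sp1 binds. They lie at chr7:25788734-25788983 (minus strand), chr2:128698665-128698914 (plus strand) and chr8:13494536-13494785 (minus strand).
Axl: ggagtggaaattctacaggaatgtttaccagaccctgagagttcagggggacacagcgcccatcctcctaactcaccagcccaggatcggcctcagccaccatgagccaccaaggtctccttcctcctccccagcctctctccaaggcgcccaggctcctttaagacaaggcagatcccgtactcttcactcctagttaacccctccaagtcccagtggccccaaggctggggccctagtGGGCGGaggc
Mertk: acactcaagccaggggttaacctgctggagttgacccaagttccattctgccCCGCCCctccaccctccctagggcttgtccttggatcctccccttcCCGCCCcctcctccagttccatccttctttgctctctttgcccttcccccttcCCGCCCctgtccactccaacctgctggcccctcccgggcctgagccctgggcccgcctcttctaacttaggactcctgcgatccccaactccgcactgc
Gas6: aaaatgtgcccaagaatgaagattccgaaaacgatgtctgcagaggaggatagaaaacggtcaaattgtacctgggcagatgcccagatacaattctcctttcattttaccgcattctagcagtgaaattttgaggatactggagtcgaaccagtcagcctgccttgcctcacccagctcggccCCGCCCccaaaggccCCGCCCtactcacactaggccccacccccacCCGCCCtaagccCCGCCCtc
Axl had 1 GC box, Mertk had 3 and Gas6 had 4, and the corresponding windows of Tyro3 and Pros1, the genes whose groups overlapped, had 3 and 5. At least 1 was found in 32.9% of 27025 promoters of the same length. The Myc E-box CACGTG was found in none of the 5 windows and in 6.05% of promoters. The EGR1 motif GCGTGGGCG, searched on both strands because EGR1 is the factor that the study is about, was found in none of the 5 and in 0.54% of promoters. The absence of these letters from a window of this length says nothing about the factor.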

How the data were processed

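The submitters' processing notes name STAR 2.3.0, HTSeq 0.5.4p3 and DESeq 1.12.1, which the authors used to align the reads (GRCm38, mm10), to count them per gene and to test the counts. RPKM values, 1 per gene and tumor, were deposited by the authors, and 2 technical replicates per tumor were not given separately. How RPKM was derived from the counts is not given in the sources used here. Depth was read roughly from the steps between low values, and no counting interval is given.

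Genes that reached 0.5 RPKM in 2 or more tumors were tested on log2(RPKM + 1) with limma 3.58.1 (trend) in R 4.3.3, with no covariate and Benjamini-Hochberg adjustment over all of them at 0.05. Single values were compared by exact two-sided permutation tests (SciPy 1.17.1), and the fit was tested on simulated data. The genes changed in that simulation were more abundant than the 5 genes, so it does not show what could be detected for them. The 5 genes, the gene lists and the markers were chosen with earlier results of these data known. Named genes are the 5, in each related list the 2 of highest mean RPKM and the 2 of largest fold change, up to 3 of the most abundant genes of marker lists, and the 3 nearest profiles. Some genes under this rule are not reported here. Pf4 and Dcn come from that rule. Foxn1, Aire, Vkorc1, Xkr9, Timd4, Stab2, Pparg, Siglec1, C1qa, Csf1r, Xist and Ddx3y were named after their values were seen. 3′UTRs and gene positions are from GENCODE M21, the longest 3′UTR of a gene being used, and promoters and microRNAs from RefSeq GRCm38.p6. The 5 genes all matched. Alternatives changed the pseudocount, filter, scaling, prior, tumors, tumor site and replicate block. Leaving out a miR-146a-/- tumor from counts of genes above all miR-146a+/+ tumors was added after seeing the data, as were list medians and fold changes of related genes without replicate 2.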

Additional observations from a re-analysis of the deposited data

Results flagged for a closer look

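Tyro3 was at 0.171 RPKM in miR-146a+/+ replicate 1, far from the other 3 miR-146a+/+ tumors (0.0764, 0.0844 and 0.0842 RPKM). It corresponds to roughly 21 reads. Of 8 sets of values checked in this way, this was the single one so far out, and chance alone marks about 1 in 20 groups.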

How the results depend on the processing

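Mertk, Gas6 and the related genes had 0 calls in the full fit and in each alternative that tested them (Mertk was not tested in 3, and Tyro3 and Pros1 were tested only without a filter). The Gas6 to Pros1 difference of 1.58 was 0.90 to 2.02 over tumors left out and 0.44 with a pseudocount of 5. The fold change of Axl was 1.57 with a pseudocount of 0.1 and 0.46 with a pseudocount of 5, and leaving out each tumor in turn gave 0.60 to 1.53. Its difference between neck node and thymus was 0.071, turned to -0.027 without miR-146a+/+ replicate 1, and ran from -0.027 to 0.17 over tumors left out. The cause was not tested. Mertk ran from 0.38 to 2.20 and Gas6 from 0.49 to 2.18, both ends set by the pseudocount. Over all genes, 8 passed between the genotypes, and the alternatives ran from 1 to 9: 4 without miR-146a+/+ replicate 3, 5 without either miR-146a-/- tumor, 3 with thymic tumors only or with site as a covariate, and 1 with the replicate block. Between the sites 19 passed, with 67 without miR-146a+/+ replicate 2, 32 without replicate 1, 11 without replicate 4 or with quantile normalization and 0 with no filter on low values (1388 at an unadjusted p under 0.05). By the labels, same-numbered tumors of the genotypes share a number only. The correlations of their deviations were 0.019 and 0.21, against -0.30 to 0.30 for differently numbered tumors. The deviations of the 2 miR-146a-/- tumors mirror each other, so these correlations cannot settle a pairing. With the replicate block the fold changes were 1.03 for Axl, 1.11 for Mertk and 1.49 for Gas6. With 2 miR-146a-/- tumors, the spread within that group rests on 1 pair of values, and low levels limit Tyro3 and Pros1.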
